A study of Mus musculus with 38 samples.

Results

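The defensin genes were taken as every protein-coding gene whose symbol begins with Defa or Defb followed by a number, which gave 70 of the 78202 genes in the tables and of the 21687 protein-coding ones. They comprised 28 alpha-defensin genes (Defa), all on chromosome 8, and 42 beta-defensin genes (Defb). The alpha-defensin genes lay between positions 21515557 and 22225490 of the mouse assembly GRCm39. Of the beta-defensin genes, 14 formed a first group on chromosome 8 (19024956 to 19547791) and 10 a second group (21382679 to 22438866) that brackets the alpha-defensin genes, with Defb33 before them and the rest after. A further 11 lay on chromosome 2 (152300915 to 152478804), 5 on chromosome 14 (63214973 to 63295600) and 2, Defb18 and Defb41, on chromosome 1 (18306697 to 18335362). Chromosome 8 thus carried 52 of the 70.

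Defensins are small secreted antimicrobial peptides held in shape by disulfide bonds between conserved cysteines. Mouse alpha-defensins are made chiefly by Paneth cells at the base of small intestinal crypts, where the matrix metalloproteinase Mmp7 cuts them to their active form, and beta-defensins are made by epithelia of the airway, skin, kidney and male reproductive tract. Genes that a cell type does not use and that sit in gene-poor, repeat-rich stretches often lie at the nuclear lamina, the protein meshwork under the inner nuclear membrane. The lamins build that meshwork, the lamin B receptor (LBR) is a membrane protein that holds heterochromatin at the nuclear edge, and LAP2B is another protein of the inner nuclear membrane, used here as a mark of DNA near that membrane. The study's authors did not use it as a stand-in for lamina-associated DNA in EpiLCs, since its signal in WT EpiLCs also lay outside such DNA, and this limits every EpiLC value of LAP2B given here.

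The cells were male mouse embryonic stem cells (mESCs), kept naive in 2i + LIF medium, and epiblast-like cells (EpiLCs) made from them with FGF and activin A, each collected at 48 h of culture. In CUT&RUN, DNA close to an antibody's target is cut loose by a nuclease bound to the antibody. LAP2B was mapped at both stages in wild-type (WT) cells, in cells lacking LBR (LBRKO), in cells lacking all lamins (TKO) and in cells lacking the lamins and LBR (QKO), while LMNB1 (lamin B1) and a non-specific immunoglobulin (IGG) were mapped in WT cells at both stages. That made 12 groups of 3 libraries. The study's methods describe the TKO and WT lines as littermates, the LBRKO cells as clones edited from the WT line and the QKO cells as a single clone edited from the TKO line, so no second QKO clone was measured. They also give the TKO line an extra copy of chromosome 8 in all cells karyotyped, and the WT line a minority population with extra copies of chromosomes 6 and 8. No source says that replicates were separate cultures, so p-values measure the spread between these libraries, which may be technical.

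A deposited value was read as the signal summed over the 1 kb bins that a gene touches. Reads over the gene table numbered 12028659 to 45689196 per library, the median defensin gene had 28.5 to 107.5 reads per library, and single values of defensin genes rested on 0 to 889 reads. The relative scale, with the median gene of a library set to 1, asks where the signal lay. The spike-in scale keeps the values as deposited, scaled to added yeast DNA, and asks how much signal there was. The level per bin used below is the value per 1 kb bin divided by the library's median gene per bin, so 1 is the median gene. It is given for 66 defensin genes. For Defa30, Defa41 and Defa39 it is left out because a gene lying wholly within their bins had more reads in some libraries, and for Defb25, a choice made after its values were seen, because its 15 bins held only 2 to 38 reads in any library. All 70 were tested.

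The last coding exons of 7 genes on which the comparisons turn are shown here 5′ to 3′ from GRCm39, all on the plus strand and with the in-frame cysteine codons in capitals.
Defa20, chr8:22000044-22000156: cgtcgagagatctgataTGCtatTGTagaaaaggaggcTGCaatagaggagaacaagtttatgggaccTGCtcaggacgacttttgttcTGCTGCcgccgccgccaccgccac
Defa32, chr8:22019819-22019931: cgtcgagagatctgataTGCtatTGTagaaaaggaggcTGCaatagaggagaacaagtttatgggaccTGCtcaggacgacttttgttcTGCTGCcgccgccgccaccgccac
Defa24, chr8:22225284-22225390: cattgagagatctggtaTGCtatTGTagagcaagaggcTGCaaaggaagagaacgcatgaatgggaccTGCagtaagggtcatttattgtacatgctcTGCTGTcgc
Defb3, chr8:19345104-19345234: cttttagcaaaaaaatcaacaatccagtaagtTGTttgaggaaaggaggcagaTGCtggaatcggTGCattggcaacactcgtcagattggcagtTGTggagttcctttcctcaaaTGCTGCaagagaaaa
Defb1, chr8:22284444-22284589: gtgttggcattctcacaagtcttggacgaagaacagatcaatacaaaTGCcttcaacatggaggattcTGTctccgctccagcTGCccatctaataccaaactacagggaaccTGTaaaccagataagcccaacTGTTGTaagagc
Defb36, chr2:152454401-152454543: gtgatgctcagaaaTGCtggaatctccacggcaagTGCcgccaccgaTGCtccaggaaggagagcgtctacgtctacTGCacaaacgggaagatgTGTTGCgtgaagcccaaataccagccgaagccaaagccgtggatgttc
Defb42, chr14:63285677-63285846: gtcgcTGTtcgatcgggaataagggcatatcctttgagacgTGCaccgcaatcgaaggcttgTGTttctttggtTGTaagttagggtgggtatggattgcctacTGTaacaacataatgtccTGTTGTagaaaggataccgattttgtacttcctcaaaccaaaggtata
Each of the first 6 carries 6 cysteine codons in this exon and Defb42 carries 7. The exons of Defa20 and Defa32, 2 of the alpha-defensin genes that fell most, are identical over 113 of 113 bases. The 50-base windows in them occur at a median of 4 and at most 4 places in the genome, and none at only 1. Defa24 matched Defa20 at 68.4% of aligned positions, with 39.7% of its windows found at only 1 place. All windows of the 4 beta-defensin exons were found at only 1 place. LAP2B reads were 50 bases long and came in pairs, and the methods give no read length for LMNB1 and IGG. Signal over the alpha-defensin copies cannot be fully assigned to 1 gene. The windows treat each read alone, so the unique share leaves out what the other read of a pair adds to its placing. Over whole genes, the median share of unique windows was 13.1% for alpha-defensins (0 to 76.9%), against 93.9% in the first and 90.5% in the second beta-defensin group of chromosome 8, 99.6% on chromosome 2 and 97% on chromosome 14. Defa2, Defa5, Defa20 and Defa33 had no unique window.

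In WT naive mESCs the defensin genes fell into LAP2B-rich loci on chromosome 8 and LAP2B-poor loci on chromosomes 2 and 14. The median defensin gene had a LAP2B level of 1.90 ± 0.19 per bin (SD, n = 3 libraries), at the 91.0th percentile of protein-coding genes. Without division by bins the median was 0.97 of the median gene, so the height above 1 holds per bin and not for whole genes. The first beta-defensin group of chromosome 8 stood highest, with a median of 2.97 ± 0.45, followed by the second group at 2.18 ± 0.33 and the alpha-defensin genes at 1.92 ± 0.15. The library ranges of the last pair overlapped, at 1.90 to 2.55 and 1.80 to 2.09. The 2 genes on chromosome 1 had 1.35 ± 0.38. The chromosome 2 genes had 0.651 ± 0.036 and the chromosome 14 genes 0.536 ± 0.042, both below the median gene and below every chromosome 8 group in all 3 libraries.

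**Figure D1:**
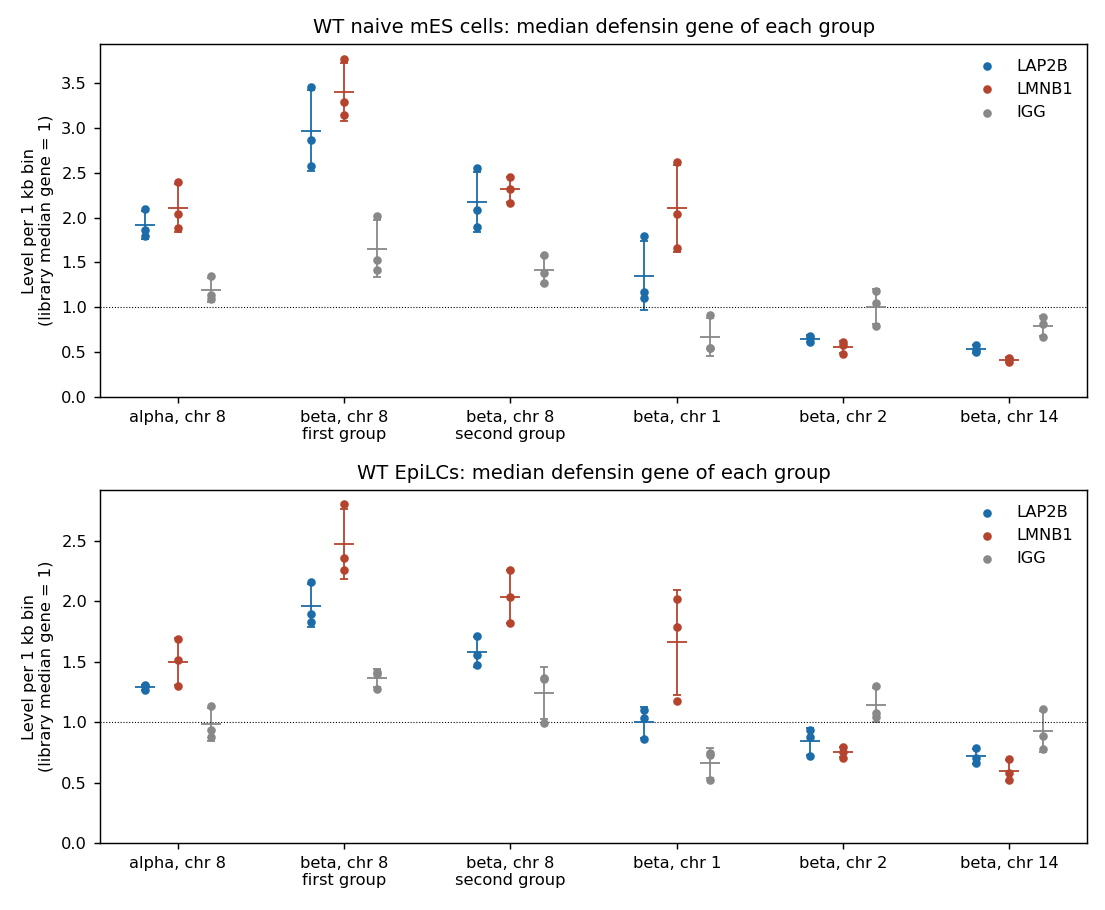
Median level per 1 kb bin (library median gene = 1, linear axis from 0) over the defensin genes of each locus, 66 in all, in WT naive mESCs and EpiLCs. Points are the 3 libraries per group, with mean and SD. Colours give the antibody (LAP2B, LMNB1, IGG), and the dotted line marks the median gene. The medians of each chromosome 8 group sit above the line for LAP2B and LMNB1, and those of chromosomes 2 and 14 below it. Single genes are not drawn. By mean LAP2B level, Defa28 lay below 1 in naive cells, and Defb29 and Defb21 lay above 1 in EpiLCs.

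LMNB1, like LAP2B, was highest in the first group of chromosome 8 and lowest on chromosome 14, while its chromosome 1 genes stood level with the alpha-defensin genes. Its naive medians were 3.40 ± 0.33 and 2.31 ± 0.14 in the first and second beta-defensin groups of chromosome 8, 2.11 ± 0.27 in the alpha-defensin genes, 2.11 ± 0.48 on chromosome 1, 0.557 ± 0.069 on chromosome 2 and 0.419 ± 0.025 on chromosome 14 (SD, n = 3). Across the 66 genes, the LAP2B and LMNB1 levels of WT naive cells had a Pearson r of 0.93 and a Spearman rho of 0.90. This describes genes that share libraries and loci and are not replicates.

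The IGG background was not flat over these loci. Its naive medians were 1.65 ± 0.32 and 1.41 ± 0.16 in the 2 beta-defensin groups of chromosome 8, 1.19 ± 0.13 in the alpha-defensin genes, 0.671 ± 0.215 on chromosome 1, 1.01 ± 0.20 on chromosome 2 and 0.791 ± 0.113 on chromosome 14. On chromosome 8, the 3 LAP2B libraries lay above the 3 IGG libraries in each group, with 2.58 to 3.46 against 1.41 to 2.02 in the first group and 1.80 to 2.09 against 1.09 to 1.34 in the alpha-defensin genes. On chromosomes 2 and 14 the order was the opposite, with LAP2B at 0.613 to 0.684 against IGG at 0.796 to 1.18 on chromosome 2, and 0.504 to 0.583 against 0.667 to 0.888 on chromosome 14. LAP2B and IGG levels had an r of 0.75 across the 66 genes. IGG was not run in the knockouts, so no background stands beside their values. All these levels are set to each library's own median gene, so a LAP2B level below IGG does not mean less signal than background.

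Within loci, single genes ranged more widely on chromosome 8 than elsewhere. Among alpha-defensin genes the WT naive LAP2B level was highest at Defa24, a Paneth cell alpha-defensin at the end of the cluster, with 3.07, 2.91 and 2.90 in the 3 libraries, and lowest at Defa28 with 0.607, 1.05 and 0.800. In the first beta-defensin group, Defb46 was highest (4.02, 4.16 and 4.05) and Defb7 lowest (2.38, 1.70 and 1.23). In the second group, Defb2 was highest with a mean of 2.93 and Defb11 lowest with 1.09. No library of the lowest gene overlapped those of the highest in any of these 3 groups. On chromosome 2 the extremes were Defb21 at 0.797 and Defb26 at 0.552, whose library values overlapped (0.286 to 1.47 and 0.429 to 0.628), and on chromosome 14 they were Defb30 at 0.590 and Defb47 at 0.461, whose values also overlapped (0.521 to 0.688 and 0.349 to 0.583). On chromosome 1, Defb18 had 1.57 and Defb41 1.14.

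In naive QKO cells, the defensin genes of chromosome 8 lost LAP2B signal relative to the median gene almost throughout. By limma's moderated test on log2 values, with Benjamini-Hochberg adjusted p under 0.05 over 70381 genes, 53 of the 70 (75.7%) were lower than in WT, where 42.5% of all genes tested were lower, and 5 were higher, where 33.1% of all genes were. On recovered reads, edgeR called 52 lower and 8 higher, where 52368 of 70381 genes were called in either direction. DESeq2 called 51 lower and 9 higher, where 52342 were. The median log2 change was -1.38 over the defensin genes and -0.23 over all genes. All 28 alpha-defensin genes fell (median -1.56), as did 13 of the 14 in the first beta-defensin group (median -1.64), all 10 in the second (median -1.42) and both on chromosome 1 (median -0.96). The 1 gene of chromosome 8 that did not pass the test was Defb7, with a log2 change of -0.37 ± 0.28 (SE). The median alpha-defensin level went from 1.80 to 2.09 in the WT libraries to 0.321 to 0.517 in the QKO libraries, below the 1.09 to 1.34 of IGG in WT cells.

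**Figure D2:**
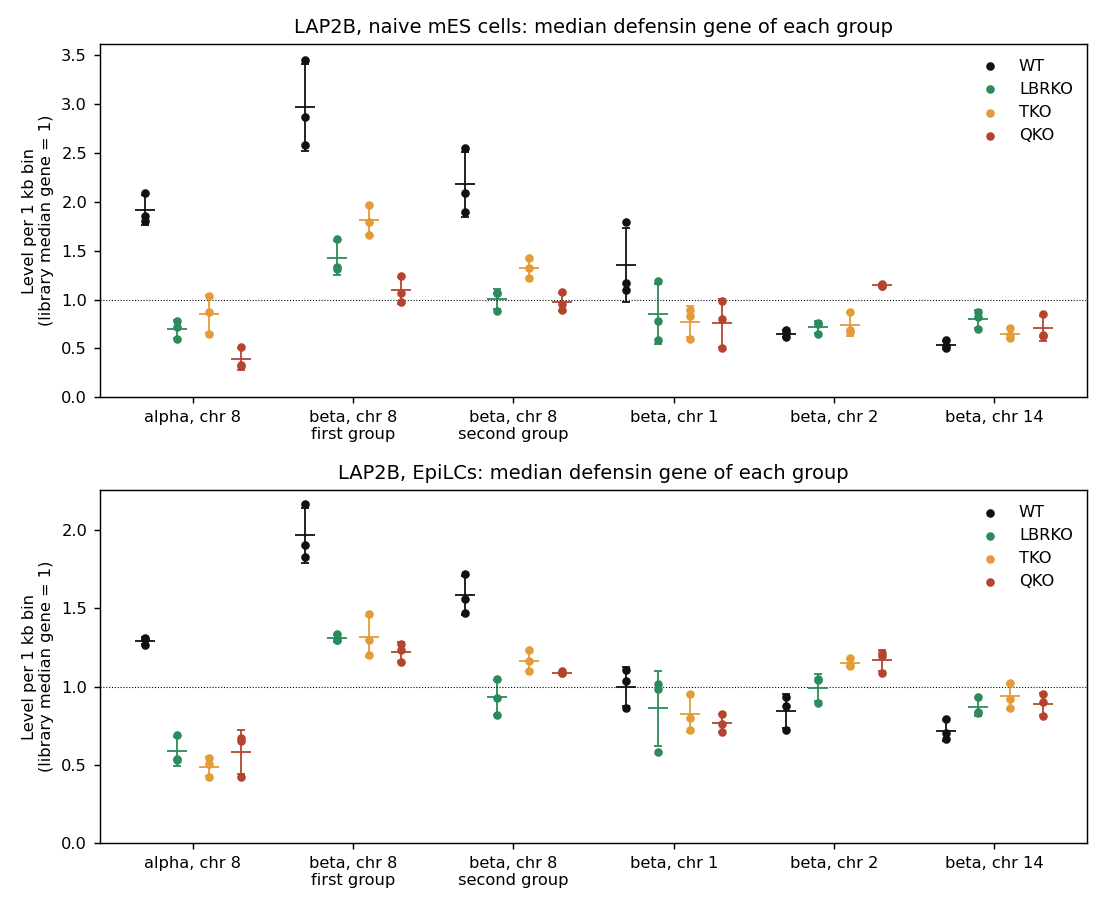
Median LAP2B level per 1 kb bin (library median gene = 1, linear axis from 0) over the defensin genes of each locus, 66 in all, in WT, LBRKO, TKO and QKO cells, naive mESCs and EpiLCs. Points are the 3 libraries per group, with mean and SD, and the dotted line marks the median gene. Single genes are not drawn. On chromosome 8 the group medians sit lower in the knockouts than in WT. In naive cells the alpha-defensin median is 1.92 in WT and 0.389 in QKO cells, and that of the first beta-defensin group 2.97 and 1.09.

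On log2 values with a pseudocount of 0.1 of the median gene, the alpha-defensin genes with the largest changes were Defa20, Defa22, Defa32 and Defa2, all of the Paneth cell (cryptdin) family. Their order depends on the pseudocount: by mean level per bin, Defa33 went from 1.26 to 0.0646, a larger ratio than that of Defa20, whose means were 1.92 and 0.145, and its log2 change was -2.25 ± 0.30. Defa20 had WT levels of 1.64, 2.32 and 1.80 per bin and QKO levels of 0, 0.201 and 0.234, while IGG in WT gave 1.43, 1.36 and 1.34. The groups did not overlap, and the QKO libraries also lay below the WT IGG libraries. Its log2 change on the relative scale was -2.56 ± 0.30 (limma adjusted p = 1.2e-10). Defa32, which has the same last exon, went from 2.00, 1.92 and 1.35 to 0.143, 0.115 and 0.0936 (-2.49 ± 0.29). Defa22 fell by 2.50 ± 0.34 and Defa2 by 2.32 ± 0.37 on the log2 scale. WT and QKO libraries of these genes did not overlap, although the WT libraries of Defa2 ranged from 0.814 to 2.50. Defa24, the least repeated alpha-defensin gene, had a level of 1.54, 1.38 and 1.64 in QKO cells with a log2 change of -1.10 ± 0.26. IGG at Defa24 in WT gave 1.43, 1.80 and 1.66, which overlapped these QKO levels.

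Among the beta-defensin genes, Defb3, an epithelial peptide induced by infection, fell most. Its level went from 3.88, 4.03 and 3.57 in WT to 0.976, 0.383 and 0.936 in QKO cells, with no overlap and with IGG at 1.14, 1.66 and 1.89 (log2 change -2.39 ± 0.27, adjusted p = 2.4e-11). In the same group Defb4 and Defb14, also inducible in epithelia, fell by 1.69 ± 0.26 and 1.17 ± 0.32. Defb1, which epithelia make without induction, covers 20 bins and was read most deeply: its level was 2.50, 2.42 and 2.23 in WT against 0.793, 1.20 and 1.00 in QKO cells, again without overlap (-1.53 ± 0.14, adjusted p = 5.8e-14). Defb46, the gene with the highest WT level, fell by 2.02 ± 0.22.

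On chromosomes 2 and 14, 5 genes were higher in naive QKO cells on the relative scale, and none of these rises was a rise past the test on the spike-in scale. The relative and spike-in log2 changes were 0.89 and 0.12 for Defb25, 0.69 and -0.35 for Defb21, 0.65 and -0.49 for Defb36, 0.65 and -0.41 for Defb20, and 0.45 and -0.70 for Defb42, which was called lower on the spike-in scale. Defb42, best known from the epididymis, had levels of 0.565, 0.504 and 0.617 in WT and 0.994, 0.923 and 0.943 in QKO cells, without overlap. Defb36 had 0.873, 0.465 and 0.533 against 1.37, 1.21 and 1.02, also without overlap. For Defb21 the groups overlapped (0.286, 1.47 and 0.633 against 1.43, 1.42 and 1.5). Each of the 5 lost its call when some single libraries were left out: without WT replicate 2 the log2 change was 0.63 for Defb25, 0.49 for Defb36, 0.47 for Defb20 and 0.39 for Defb42, and without WT replicate 1 it was 0.24 for Defb21. The call of Defb21 was also lost without QKO replicate 1, 2 or 3 (0.71, 0.67 and 0.67) or WT replicate 3 (0.64), that of Defb20 without QKO replicate 1 or 3 (0.60 and 0.62) or WT replicate 1 (0.62), and that of Defb42 without QKO replicate 1 or 2 (0.44 and 0.45). The other 7 genes on chromosome 2 and 4 on chromosome 14 did not pass the test on the relative scale, with medians over the loci of 0.49 and 0.01.

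**Figure D3:**
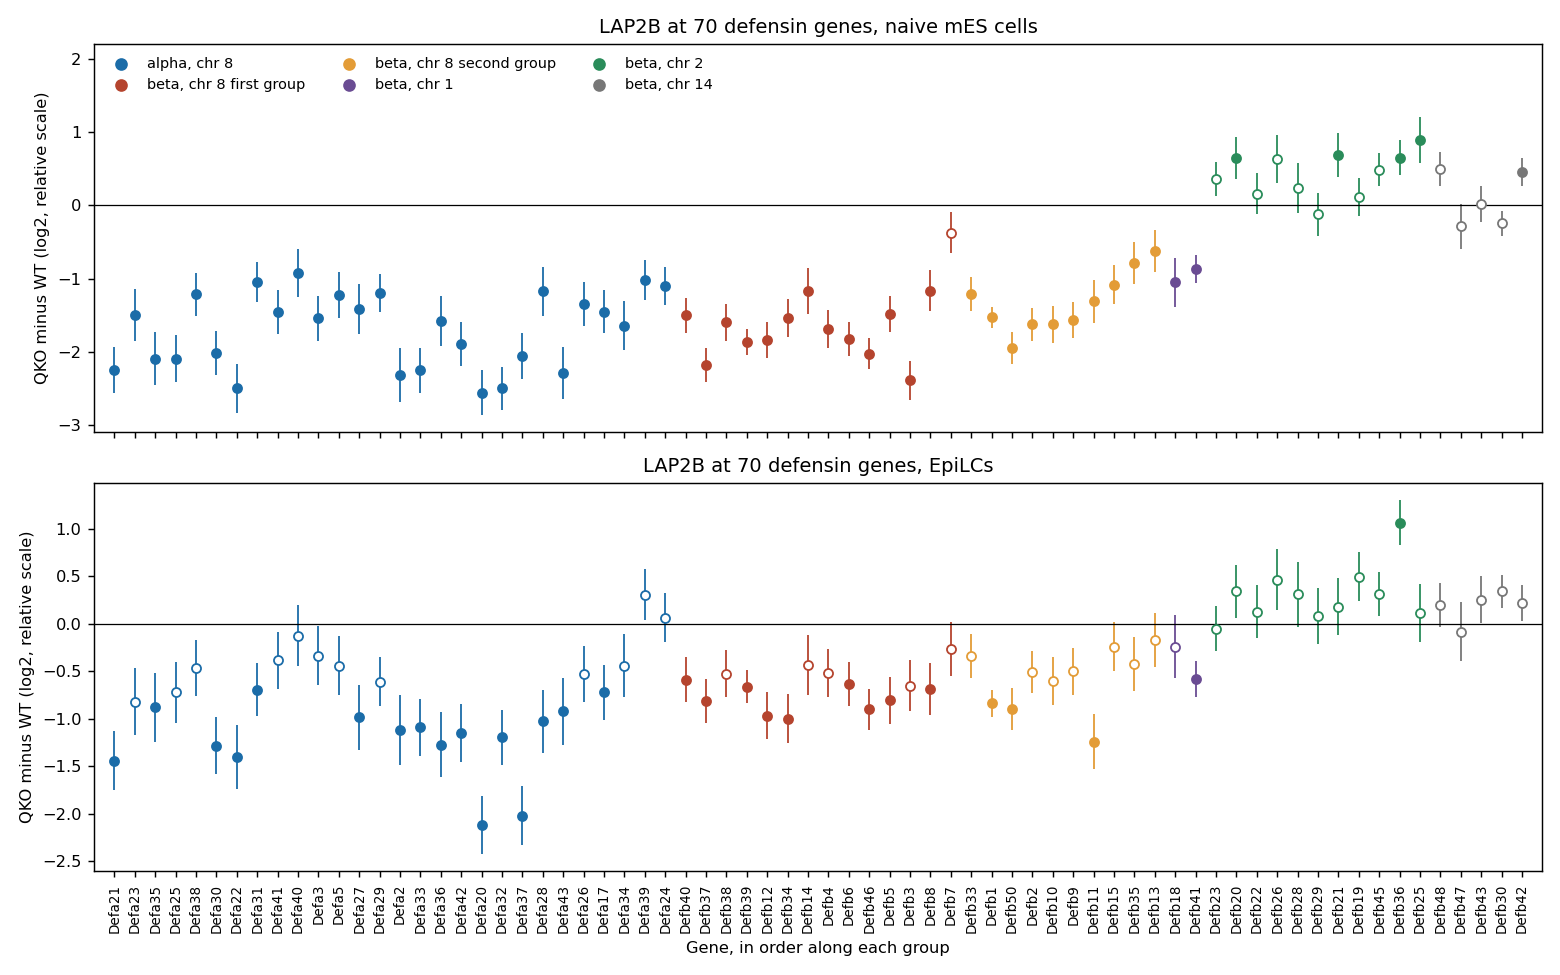
LAP2B log2 change, QKO minus WT, relative scale, of 70 defensin genes in order along each locus for naive mESCs and EpiLCs. Points are coloured by locus, bars are the standard error of the limma fit and filled points passed the adjusted p of 0.05. In naive cells 51 of the 52 genes on chromosome 8 are below 0 and called, and chromosome 2 lies mostly above 0.

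In naive cells lacking LBR alone or the lamins alone, most of the same loci were lower too. In LBRKO cells 48 of the 70 (68.6%) were lower, where 27.7% of all genes were, and 1 was higher, where 28.9% of all genes were. In TKO cells 40 (57.1%) were lower, where 27.6% of all genes were, and limma called 0 higher, where 21.8% of all genes were. At an unadjusted p under 0.05, 1 was higher, where 39030 of 70381 genes passed in either direction. edgeR and DESeq2 called 0 higher, where they called 32459 and 33296 of 70381 genes in either direction. The median log2 changes were -0.91 in LBRKO and -0.74 in TKO cells, against 0.04 and -0.11 over all genes. Of the 28 alpha-defensin genes, 26 fell in LBRKO (median -1.14) and 19 in TKO cells (median -1.12). The first beta-defensin group had 13 and 11 of 14 lower (medians -1.08 and -0.80) and the second had 8 and 8 of 10 (medians -1.02 and -0.79). Both comparisons share the WT libraries.

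With this pseudocount Defa20 had the largest change in both, with levels of 0.232, 0.474 and 0.165 in LBRKO (-2.05 ± 0.30) and 0.286, 0.206 and 0.167 in TKO cells (-2.23 ± 0.30), none of which overlapped WT. Second came Defb10 in LBRKO cells, with 1.02, 0.793 and 0.659 against 2.40, 3.44 and 2.46 in WT (-1.68 ± 0.25), and Defa32 in TKO cells (-2.22 ± 0.29). With a pseudocount of 0.02 of the median, Defa32 came before Defa20 in TKO cells, at -3.09 against -2.95. The 1 rise was that of Defb42 in LBRKO cells, at 1.19, 0.912 and 0.966 against 0.504 to 0.617 in WT (0.76 ± 0.19, adjusted p = 0.00071), and it was also called on the spike-in scale (0.94 ± 0.30). Of the well-known genes, Defb1 fell by 1.20 ± 0.14 in LBRKO and by 0.79 ± 0.14 in TKO cells. Defb4 fell by 0.88 ± 0.26 in LBRKO cells and had -0.54 ± 0.26 (not called) in TKO cells, and Defa24 likewise fell by 0.94 ± 0.26 in LBRKO cells and had -0.47 ± 0.26 (not called) in TKO cells. Defb14 fell in both, by 1.03 ± 0.32 and 0.87 ± 0.32. On chromosome 2, Defb19 was the only gene called in TKO cells (-0.84 ± 0.26).

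QKO cells derive from TKO cells, so their difference covers the step from lamin loss to loss of the lamins and LBR. It also covers whatever else sets the single QKO clone apart, and these cannot be told apart. In naive cells 28 of the 70 were lower in QKO than in TKO cells, where 27.2% of all genes were, and 3 were higher, where 26.4% of all genes were, with a median log2 difference of -0.52. The first beta-defensin group had 11 of 14 lower (median -0.85), the alpha-defensin genes 11 of 28 (median -0.65) and the second group 5 of 10 (median -0.53). Defb3 went from 2.52, 2.34 and 2.69 in TKO to 0.976, 0.383 and 0.936 in QKO cells, without overlap (-1.73 ± 0.27), and Defb4 fell by 1.15 ± 0.26. For Defa20, already low in TKO cells, the difference was -0.33 ± 0.30 and not called. Defb19, a beta-defensin of the testis, and Defb20 were higher by 0.95 ± 0.26 and 0.77 ± 0.28 on the relative scale, with 0.38 ± 0.34 and 0.20 ± 0.35, neither called, on the spike-in scale. The call of Defb20 was lost without QKO replicate 1 or 3 (0.72 and 0.74) or TKO replicate 1 (0.58). Without QKO replicate 1 or without QKO replicate 3, 18 of the 70 were called in place of 31. The share of all genes called with a library left out is not given, here or below. Such counts therefore do not tell a shift of the defensin genes from a shift over all genes.

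In EpiLCs the chromosome 8 loci also stood lower in the knockouts, with fewer calls than in naive cells, as over all genes. LBRKO cells had 28 of the 70 (40.0%) lower, where 10.1% of all genes were, and 0 higher, where 13.3% of all genes were. For that 0 from limma, edgeR and DESeq2 also gave 0, where they called 16464 and 17740 of 70381 genes in either direction. At an unadjusted p under 0.05, 1 defensin gene was higher, where 23678 of 70381 genes passed in either direction. TKO cells had 20 lower, where 9.97% of all genes were, and 2 higher, where 8.68% of all genes were. QKO cells had 29 lower, where 17.8% of all genes were, and 1 higher, where 18.3% of all genes were. The median log2 changes over the 70 were -0.58, -0.40 and -0.53 in that order, all 3 against the same WT libraries. Every lower gene but 1 was on chromosome 8; the exception was Defb41 in QKO cells (-0.58 ± 0.19). Alpha-defensin genes made up 15, 11 and 16 of the falls, the first beta-defensin group 6, 6 and 9, and the second 7, 3 and 3. Without LBRKO replicate 2 or WT replicate 1, 18 genes were called in LBRKO cells, and 13 and 11 were called in TKO cells without TKO replicate 1 and without WT replicate 1.

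Defa20 had the largest log2 change in each EpiLC knockout with the pseudocount of 0.1, and with 0.02 Defa37 came before it in QKO cells (-3.03 against -2.84). Its levels were 1.64, 1.56 and 1.91 in WT cells. They were 0.223, 0.346 and 0.687 in LBRKO libraries, 0.208, 0.337 and 0.126 in TKO libraries and 0.153, 0.257 and 0.211 in QKO libraries, with IGG at 0.920, 0.836 and 0.776 in WT. On the relative scale all knockout libraries lay below all WT and IGG libraries (log2 changes -1.60 ± 0.30, -2.06 ± 0.30 and -2.12 ± 0.30). With spike-in values, which may be scaled separately for each antibody, LBRKO (0.239 to 0.813) and TKO libraries (0.0877 to 0.285) overlapped IGG (0.226 to 0.625). The QKO libraries (0.0904 to 0.138) lay below IGG there too. The next largest falls were those of Defa2 in LBRKO (-1.36 ± 0.37), Defa36 in TKO (-1.83 ± 0.34) and Defa37 in QKO cells (-2.02 ± 0.31). Without LBRKO replicate 3, the change of Defa2 was -1.10 and not called. Defb1 fell in all 3, by 0.62 ± 0.14, 0.58 ± 0.14 and 0.84 ± 0.14. Defa24 was not called in any of them, with -0.55 ± 0.26, 0.18 ± 0.26 and 0.06 ± 0.26. Defb36 on chromosome 2 was higher in TKO (0.69 ± 0.23) and QKO cells (1.06 ± 0.23) on the relative scale, with 0.45 ± 0.31 and 0.23 ± 0.31, neither called, on the spike-in scale, and Defb30 on chromosome 14 was higher in TKO cells (0.52 ± 0.17, spike-in 0.26 ± 0.29). The call of Defb36 in TKO cells was lost without TKO replicate 1, 2 or 3 (0.75, 0.64 and 0.69) or WT replicate 1 or 3 (0.67 and 0.46), and that of Defb30 without TKO replicate 1 or 2 (0.53 and 0.48) or WT replicate 1 or 3 (0.51 and 0.45).

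Between QKO and TKO EpiLCs, limma called 0 of the 70 on the relative scale, where 1.2% of all genes were called in either direction. At an unadjusted p under 0.05 there were 3, where 9254 of 70381 genes passed. edgeR called 0 of 70, where 1580 of 70381 genes were called. DESeq2 called 0 of the 28 for which it gave an adjusted p, where 2602 of 41726 genes were called. The median difference was -0.13, with single genes from -0.73 to 0.76. On the spike-in scale limma called 16 lower, where 28.4% of all genes were, with a median of -0.59 against -0.57 over all genes. There edgeR called 25 lower, where 24958 of 70381 genes were called in either direction, and DESeq2 30, where 27673 were. The 16 became 0 without QKO replicate 2 or TKO replicate 1, 3 without QKO replicate 3, 7 without QKO replicate 1 and 27 without TKO replicate 3.

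Between stages in WT cells, the number of single defensin genes that passed the test for LAP2B depended on the pseudocount, and few passed for LMNB1. The median LAP2B level over the 66 genes was 1.33 ± 0.03 in EpiLCs against 1.90 ± 0.19 in naive cells, and the LMNB1 level 1.57 ± 0.16 against 2.09 ± 0.21. For LAP2B, 10 of the 70 were lower, where 17.1% of all genes were, and 2 higher, where 15.1% were. With a pseudocount of 0.5 of the median, 24 were lower, where 19.4% of all genes were, and 2 higher, where 14.4% were. For LMNB1, 6 were lower, where 7.09% of all genes were, and 2 higher, where 6.34% were. With spike-in values LAP2B had 1 lower, where 1.75% of all genes were, and LMNB1 had 4 higher, where 8.01% of all genes were, and none lower, with medians of -0.25 and -0.02. The LAP2B count was 0 without EpiLC WT replicate 3 or naive WT replicate 1, 3 without EpiLC WT replicate 2 and 2 without naive WT replicate 2. The LMNB1 count was 0 without EpiLC replicate 1 or 3 or naive replicate 1, 7 without EpiLC replicate 2 and 2 without naive replicate 2. The IGG level on chromosome 8 was also lower in EpiLCs, with medians of 1.37 against 1.65 in the first beta-defensin group and 0.983 against 1.19 in the alpha-defensin genes, with overlapping library ranges, and its part in the LAP2B and LMNB1 levels was not tested. For IGG, limma called 0, where 0.49% of all genes were called in either direction. At an unadjusted p under 0.05 there were 10 of the 70, where 9213 of 70381 genes passed. edgeR called 0 of 70 and DESeq2 0 of 27, where 528 of 70381 and 945 of 37632 genes were called.

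The largest called LAP2B falls with stage were those of Defa22 (-1.10 ± 0.34) and Defb6 (-0.94 ± 0.23), whose level went from 3.45, 3.43 and 3.72 to 1.98, 1.37 and 1.95 without overlap. The rises were those of Defb29 (0.78 ± 0.29) and Defb42 (0.64 ± 0.19). Without EpiLC WT replicate 3, 4 genes were called in place of 12, Defa22 had -0.64 and Defb42 0.54, and neither was called. The call of Defb29 was lost without 5 of the 6 libraries 1 at a time, the exception being naive WT replicate 2 (0.54 to 0.85 without the others). For LMNB1, Defa21 (-1.14 ± 0.30) and Defa23 (-0.86 ± 0.26) fell most, and Defb28 (1.05 ± 0.31) and Defb30 (0.71 ± 0.21) rose. Leaving out LMNB1 libraries took the count of 8 to 1 without EpiLC replicate 3, 2 without EpiLC replicate 1 or naive replicate 3, and 3 without naive replicate 1. Each of these 4 genes lost its call without at least 2 of the 6 libraries, with changes then of -0.90 to -0.97 for Defa21, -0.68 to -0.97 for Defa23, 0.82 to 1.20 for Defb28 and 0.61 to 0.74 for Defb30.

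The difference between stages in the knockout effect was tested as an interaction, EpiLC effect minus naive effect. For QKO, 26 of the 70 (37.1%) had a positive difference, where 24.9% of all genes did, which means that the change was less negative or more positive in EpiLCs than in naive cells. The count was 19 (27.1%) by edgeR, where 19.2% of all genes were, 17 (24.3%) by DESeq2, where 17.9% were, and 16 (22.9%) by edgeR with median-of-ratios factors, where 16.9% were. They comprised 10 alpha-defensin genes, 9 of the first and 6 of the second beta-defensin group of chromosome 8, and Defb30. Defb3 had the largest difference, 1.73 ± 0.38, with a change of -2.39 in naive cells and -0.66 ± 0.27 (not called) in EpiLCs. Defa25 had 1.37 ± 0.45, and 1.11, not called, without EpiLC QKO replicate 1. For LBRKO, 4 had a positive difference, where 10.2% of all genes did, namely Defb3 (1.03 ± 0.38), Defb39 (0.76 ± 0.25), Defb41 (0.74 ± 0.27) and Defb1 (0.58 ± 0.20). This count became 0 without EpiLC WT replicate 3, naive LBRKO replicate 3 or naive WT replicate 2, 1 or 2 without any of 6 other libraries, and 7 without EpiLC WT replicate 1. For TKO, 2 had a positive difference, where 5.79% did, namely Defa32 (1.48 ± 0.41) and Defb19 (1.21 ± 0.37). This count became 0 without EpiLC TKO replicate 3 or naive TKO replicate 1, and 1 without EpiLC WT replicate 3, naive TKO replicate 3 or naive WT replicate 2.

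The spike-in scale gave lower values than the relative scale in TKO and QKO cells, for the defensin genes and over all genes, and not in LBRKO cells. In naive QKO cells 63 of the 70 were lower, where 65.5% of all genes were, and these included all 52 on chromosome 8. The median log2 change of the 70 was -2.25, against -1.24 over all genes. In naive TKO cells 50 were lower, where 47.5% of all genes were, and in naive LBRKO cells 37 were lower, where 17.8% of all genes were, and 2 higher, where 28.2% were. The LBRKO median of the 70 was -0.78 in naive cells and -0.57 in EpiLCs, against 0.21 and 0.04 over all genes. Without naive WT replicate 2 the LBRKO count of 39 became 23. In EpiLCs, QKO cells had 54 lower, where 55.7% of all genes were, TKO cells 21, where 9.36% were, and LBRKO cells 12, where 3.47% were. The last 2 counts turned on single libraries: the TKO count was 7 without TKO replicate 2 or 3, 6 without WT replicate 1 and 8 without WT replicate 3, and the LBRKO count was 5 or 6 without LBRKO replicate 1, 2 or 3 or WT replicate 1 or 3 and 19 without WT replicate 2. In naive QKO cells, Defa20 fell on this scale by 2.99 ± 0.36, Defb3 by 3.30 ± 0.33 and Defb1 by 2.72 ± 0.26. The interaction with stage on this scale was called positive for 20 of the 70 in QKO cells, where 21.9% of all genes were. That count was 10 without EpiLC QKO replicate 1, 5 without EpiLC WT replicate 2, 12 without naive QKO replicate 1 and 7 without naive WT replicate 2.

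Because chromosome 8 differed in copy number between the lines, its genes as a whole were measured too. Over the 3523 genes tested on chromosome 8, the median relative log2 change was 0.08 in LBRKO, -0.03 in TKO and -0.16 in QKO naive cells, and -0.01, 0.12 and 0.12 in EpiLCs. The medians of its defensin genes were -1.11, -0.86 and -1.56 in naive cells and -0.69, -0.60 and -0.69 in EpiLCs. When each library was divided by the median gene of the gene's own chromosome, 48, 42 and 53 of the 70 were lower in naive LBRKO, TKO and QKO cells. The share of all genes lower under that scaling is not given, so these counts alone show no excess over all genes. Local copy number within the loci was not measured, and its part in the result was not tested.

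Repeated sequence varied with the change inside the alpha-defensin cluster. In the 25 alpha-defensin genes with a level, the share of unique windows and the naive QKO log2 change had an r of 0.40 and a rho of 0.39, a description over genes that share libraries and a locus. The 12 with under 10% unique windows had a median change of -1.82 and the 13 with 10% or more had -1.54, and all 25 fell. Among the 45 defensin genes with at least 50% unique windows, 3 of them alpha-defensins, 28 were lower, where 42.5% of all genes were, and 5 higher, where 33.1% were, with a median change of -1.10 against -1.38 over the 70. The part of read assignment in the larger falls was not tested.

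**Figure D4:**
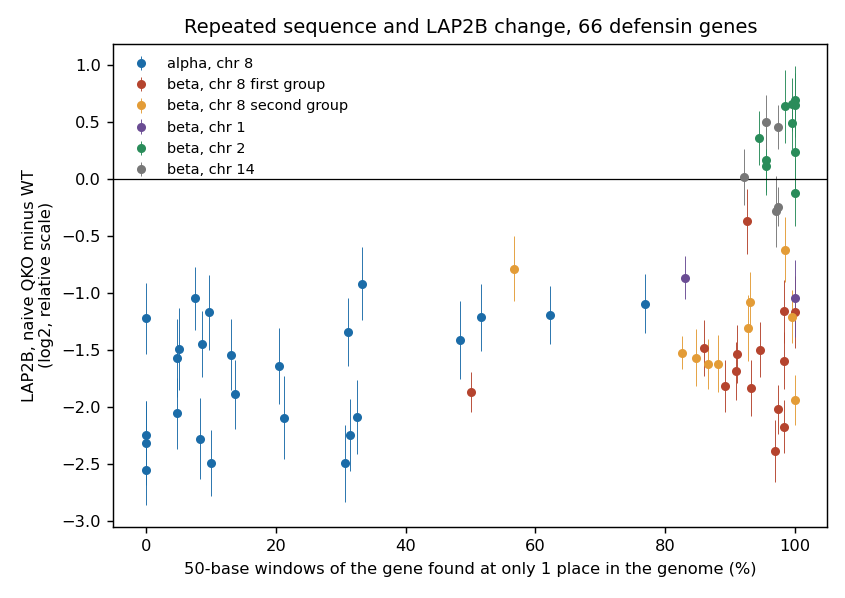
Share of a gene's 50-base windows found at only 1 place in the genome (x axis, %) against its LAP2B log2 change in naive QKO minus WT, relative scale (y axis), for defensin genes coloured by locus. Bars are the standard error of the limma fit. Alpha-defensin genes spread over 0 to 76.9% and all lie below 0, as do nearly unique beta-defensin genes of chromosome 8.

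Genes with more LMNB1 in WT cells tended to have the larger LAP2B falls. Across the 66 genes, the WT LMNB1 level and the relative log2 change in naive cells had an r of -0.69 (rho -0.53) in QKO, -0.69 (rho -0.53) in LBRKO and -0.42 (rho -0.37) in TKO cells. In EpiLCs r was -0.40, -0.28 and -0.30 in LBRKO, TKO and QKO cells. The 3 knockout changes share the WT LAP2B libraries and the points fall by locus, so these are descriptions only.

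**Figure D5:**
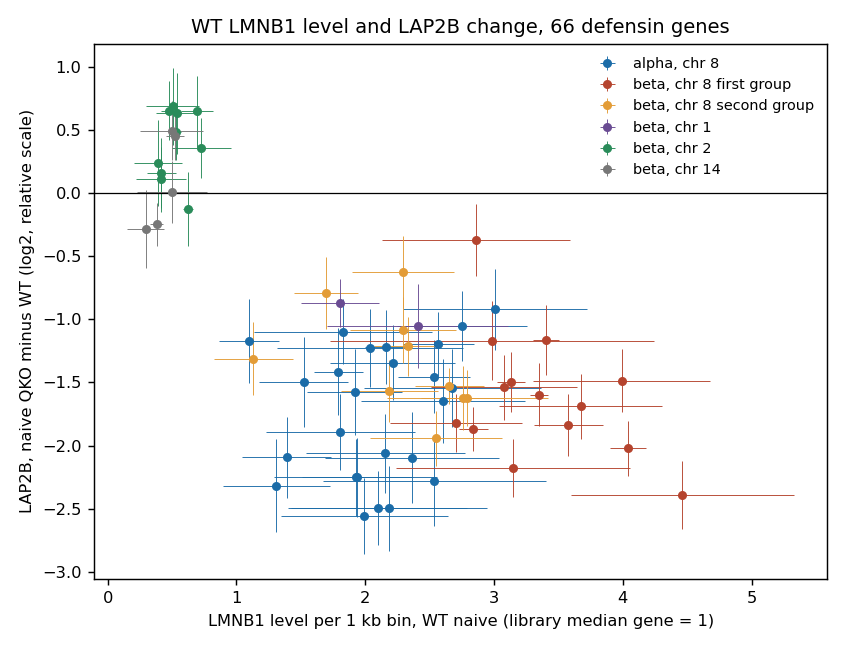
LMNB1 level per 1 kb bin in WT naive mESCs (x axis, library median gene = 1; bars, SD of 3 libraries) against the LAP2B log2 change in naive QKO minus WT, relative scale (y axis; bars, standard error of the limma fit), for 66 defensin genes coloured by locus. Chromosomes 2 and 14 sit at low LMNB1 near or above 0, and the chromosome 8 groups at higher LMNB1 below 0.

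Other genes of host defence, a list of 28 of which 27 were tested, were counted in naive QKO cells on both scales. On the relative scale 11 of the 27 were lower, a share near the 42.5% of all genes, and 7 higher, where 33.1% of all genes were. With spike-in values 22 were lower, where 65.5% of all genes were, and 1 higher, where 10.1% were. Of 9 Paneth cell and processing genes, 6 were lower and 1 higher on the relative scale (median -1.08), and 8 were lower on the spike-in scale. The largest falls were those of the lectins Itln1 (-2.06 ± 0.11), Reg3a (-2.05 ± 0.28), Reg3g (-1.89 ± 0.29) and Reg3b (-1.65 ± 0.28). Of 10 other antimicrobial genes tested, 4 were higher and 2 lower on the relative scale and 1 higher and 7 lower on the spike-in scale, and Elane, the neutrophil elastase gene, was higher on both, by 2.38 ± 0.33 and 1.26 ± 0.35. Spag11b, a defensin-like epididymal gene inside the first beta-defensin locus of chromosome 8, fell by 2.19 ± 0.23 on the relative scale. Of the 6 receptors and regulators, 2 were higher and 1 lower on the relative scale, and 5 were lower on the spike-in scale.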

How the data were processed

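CUT&RUN libraries for LAP2B, LMNB1 and IGG were analysed in 12 groups of 3, and 2 H3K9me3 samples were not analysed here. Per the submitters' notes and methods, the authors aligned read pairs to GRCm39 (named mm39 in the notes) with Bowtie2 2.3.5.1, kept properly paired primary alignments with SAMtools 1.10, removed duplicates and mitochondrial reads, and computed 1 kb RPKM with deepTools, multiplied by a yeast (sacCer3) spike-in factor. No mapping-quality filter is stated, so reads from repeated sequence remain, placed at 1 of their matches. The deposited signal of a gene was read as the sum over the 1 kb bins it touches. All 343 sets of genes within 1 shared bin had equal values (difference under 0.0001). However, 147 of 17196 genes with another gene wholly inside their bins had fewer reads than it in at least 1 library. Gene spans here came from a later GENCODE annotation than the one named in the study's methods. For those genes the spans differ from the authors' or the reading fails. Of the 70 defensin genes, 31 share a bin with another gene. In every library 100% of the values were whole multiples of 1 read within 0.05 of a step, and the reads recovered from them ranged from 12028659 to 45689196 per library over the gene table.

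Genes in the lowest 0.1 by mean were left out and limma 3.58.1 (R 4.3.3) was run on log2(value + 0.1 of the table's median), with 8 group means for the 24 LAP2B libraries, 2-sided and without a replicate block. The pseudocount understates changes of low genes. Calls are at a Benjamini-Hochberg adjusted p under 0.05 over 70381 genes. edgeR 4.0.16 and DESeq2 1.42.0 were run on the recovered reads, and called 52368 and 52342 genes in naive QKO cells on the relative scale. Replicates differed by more than counting noise (chi-square per degree of freedom 3.37 to 12.6 over 36 pairs). Windows of 50 bases were counted in the genome on both strands. The fits were run on simulated reads with 200 genes changed. That is far fewer than were called in these data, so it does not test the scaling used here. Alternatives covered scaling, pseudocount, filter, tool, replicate block, shared bins and each library left out, and, chosen after seeing the data, only genes with at least 50% unique windows and only beta-defensins. The genes and lists were chosen with earlier results of these data known. Named were up to 5 largest called rises and falls in naive QKO and up to 2 in every other contrast, the highest and lowest WT level in each locus, and Defb1, Defb4, Defb14 and Defa24. In each host defence and neighbour list, at most a few were named by size of change.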

Additional observations from a re-analysis of the deposited data

Results flagged for a closer look

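The differences flagged are those in which the LAP2B change of a knockout was not the same in EpiLCs as in naive cells, by limma's interaction test on the relative scale, with positive values where the EpiLC change was less negative or more positive. In QKO cells 26 of the 70 defensin genes (37.1%) passed this test, all positive, where 24.9% of all genes were, with Defb3 at 1.73 and Defa25 at 1.37 as the largest. The count was 19 by edgeR, 17 by DESeq2 and 16 with median-of-ratios factors, where 19.2%, 17.9% and 16.9% of all genes were positive. Defb3 kept its call in every alternative run, and Defa25 lost it without EpiLC QKO replicate 1 (1.11).

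In LBRKO cells 4 passed, where 10.2% of all genes were positive, with Defb3 at 1.03 and Defb39 at 0.76. Defb3 lost its call in 15 of 22 alternatives, with values from 0.81 to 1.28 over all of them, and Defb39 in 6 of 22, from 0.56 to 0.89. In TKO cells 2 passed, where 5.79% of all genes were positive, Defa32 at 1.48 and Defb19 at 1.21. Defa32 lost its call without EpiLC TKO replicate 3 (1.39) or naive TKO replicate 1 (1.28), and Defb19 in 6 of 22 alternatives, from 0.77 to 1.37.

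With the spike-in scale, 20 defensin genes were called for QKO, all positive, where 21.9% of all genes were positive. For LBRKO limma called 0, with 0 at an unadjusted p under 0.05, where 12380 of 70381 genes passed. For TKO limma called 0, with 13 at an unadjusted p under 0.05, where 14374 of 70381 genes passed. The share of all genes that limma called in these interactions is not given here. In LBRKO edgeR called 0 of 70 and DESeq2 0 of the 33 with an adjusted p, where 255 of 70381 and 803 of 44455 genes were called. In TKO edgeR called 0 of 70 and DESeq2 1 of 46, where 501 of 70381 and 2268 of 51277 genes were called.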

How the results depend on the processing

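Values here are percentages of the defensin genes tested that were called, or median levels per bin. The share over all genes is given for only some alternatives, so these percentages show dependence on processing and not an excess over all genes. Of 574 such values recomputed under an alternative, 459 stayed within 1.5 times the reported count or 1 SD of the reported level, and on the relative scale those for naive LBRKO, TKO and QKO against WT all did. Of 42 changes named for single genes, 21 kept their call in every alternative, 21 lost it in at least 1, and none reversed.

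For LAP2B between stages (17.1% relative, 1.43% spike-in), a pseudocount of 0.5 gave 37.1% and 5.71%. With the spike-in scale a pseudocount of 0.02, no filter, edgeR, the unique genes (at least 50% unique windows) and the beta-defensins each gave 0, genes sharing no bin 2.56% and a filter of 0.25 3.64%. For LMNB1 between stages (11.4% and 5.71%), no filter gave 0 on both scales. On the relative scale the mean and the chromosome-centred scaling each gave 5.71% and genes sharing no bin 17.9%, and on the spike-in scale the unique genes gave 8.89% and the beta-defensins 9.52%. IGG on the spike-in scale (0) had 11.4% by DESeq2, where 21186 of 67651 genes were called in either direction. LBRKO in EpiLCs on the spike-in scale (17.1%) had 8.57% with a pseudocount of 0.02 and with edgeR, 7.14% with no filter and in beta-defensins, 10.9% with a filter of 0.25, 10% by DESeq2 and 8.89% in unique genes. TKO in EpiLCs (30.0%) had 19.0% in beta-defensins. QKO against TKO in EpiLCs (22.9%) had 35.7% by edgeR and 42.9% by DESeq2, where 24958 and 27673 of 70381 genes were called in either direction. For the interactions on the relative scale, LBRKO (5.71%) had 2.86% with no filter, 1.43% with the mean and with median-of-ratios factors, 10.7% by DESeq2, 8.89% in unique genes and 9.52% in beta-defensins. QKO (37.1%) had 22.9% with median-of-ratios factors and 24.3% by DESeq2, and TKO (2.86%) 1.82% with a filter of 0.25 and 1.43% with the mean. DESeq2 gave on the spike-in scale 44.3% for QKO (28.6%), where 25254 of 70381 genes were called in either direction. It gave 2.17% for TKO (0), where 2268 of 51277 were.

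Without division by bins the median level was 0.97 and 0.88 for LAP2B, 1.09 and 0.95 for LMNB1 and 0.84 and 0.79 for IGG (naive, EpiLC). With the genes of at least 50% unique windows it was 1.46 for LAP2B and 1.91 for LMNB1 in EpiLCs, and 1.25 and 1.22 for IGG. Division by each library's mean gave 1.65 and 1.29 for LAP2B and 1.75 for naive LMNB1, the mean over genes 1.23 for naive IGG, and genes sharing no bin 1.38 for LAP2B in EpiLCs.

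Leaving out 1 library at a time gave, on the relative scale, 25.7 to 31.4% for LBRKO and 15.7 to 28.6% for TKO in EpiLCs, 25.7 to 40.0% for QKO against TKO in naive cells, 5.71 to 24.3% for LAP2B and 1.43 to 14.3% for LMNB1 between stages, and 0 to 10% and 0 to 2.86% for the LBRKO and TKO interactions. With the spike-in scale it gave 32.9 to 52.9% for naive LBRKO, 7.14 to 27.1% and 8.57 to 44.3% for EpiLC LBRKO and TKO, 37.1 to 62.9% and 0 to 38.6% for QKO against TKO in naive cells and EpiLCs, 0 to 4.29%, 0 to 10% and 0 to 12.9% for LAP2B, LMNB1 and IGG between stages, and 7.14 to 32.9% and 0 to 7.14% for the QKO and TKO interactions. Among spike-in counts not given in the report, QKO against TKO in naive cells had 26 in place of 42 without naive TKO replicate 2. IGG had 9 in place of 0 without EpiLC replicate 3, and the TKO interaction 2 or 5 in place of 0 without EpiLC TKO replicate 3 or naive TKO replicate 2. The cause of these shifts was not tested.

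Replicate numbers did not pair the samples, since correlations of same-numbered deviations ran from -0.25 to 0.18 and in no comparison were all above 0.1. With a replicate block, LMNB1 between stages had 5.71% on the relative scale and 0 on the spike-in scale, and the block moved no other count by more than 1.5 times. Depth limits single alpha-defensin genes most, which had 13 to 50 reads in the median library among those named.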

Other observations

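The protein-coding genes beside and between the defensin genes were counted in naive QKO cells, where 42.5% of all genes were lower and 33.1% higher on the relative scale, and 65.5% lower and 10.1% higher on the spike-in scale. On the relative scale all 12 neighbours tested on chromosome 8 were lower (median log2 change -1.01, from -2.19 to -0.50), and 4 further neighbours, all of the Potefam3 family, were listed at 0 in every library and not tested. All 6 on chromosome 1 were lower (median -1.53). On chromosome 2, 7 of 8 were higher (median 1.47), and on chromosome 14 all 6 were higher (median 0.79), beside defensin genes of which 1 of 5 was called (median 0.01). With the spike-in scale the neighbours on chromosomes 8 and 1 were again all lower (medians -2.13 and -2.73), while 2 were higher and 1 lower on chromosome 2 (median 0.36) and 3 were lower and none called higher by limma on chromosome 14 (median -0.41).

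In naive LBRKO cells 27.7% of all genes were lower and 28.9% higher on the relative scale, and 17.8% and 28.2% on the spike-in scale. The chromosome 14 neighbours were all higher on both scales (medians 1.19 relative and 1.37 spike-in), beside the rise of Defb42 there. The 6 chromosome 1 neighbours were all lower on both scales (medians -1.29 and -1.11). On chromosome 8, 8 of the 12 were lower on the relative and 5 on the spike-in scale. In naive TKO cells 6 of the 12 on chromosome 8 were lower on the relative scale and 11 on the spike-in scale, where 27.6% and 47.5% of all genes were.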
